A study of Homo sapiens with 27 samples.

Results

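The transcriptional response to SIRT3 knockdown was compared between HBL1 and Karpas422, which are established human cell lines of diffuse large B-cell lymphoma (DLBCL). All 9 HBL1 libraries and all 9 Karpas422 libraries were taken, 18 of the 27 libraries in the series; the other 9 libraries come from the line OCI-Ly1. In each line the cells expressed shCTRL, a control hairpin, or one of a pair of hairpins against SIRT3, shSIRT3-1 and shSIRT3-2, with 3 replicates a group, and total RNA was extracted on day 8. The hairpins were carried by lentivirus, so the controls were infected too, each group is a cell population rather than a clone, and each cell line stands for 1 tumour. The study's general protocol adds puromycin to select infected cells some days after infection; whether the RNA-seq cultures were selected is not stated separately. The study describes HBL1 as a line of the activated B-cell-like (ABC) subtype and Karpas422 as a line with high expression of oxidative phosphorylation genes. Nothing in the labels says whether replicates came from separate infections or cultures, so the p-values measure the spread between these libraries, which may be technical.

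Expression was measured as read counts scaled to library depth (CPM). Of the 27115 genes in the files, the 12652 that reached at least 1 CPM in at least 3 of the 18 libraries were tested. The response of a line is the log2 fold change of its SIRT3 hairpins, averaged over both, against its own shCTRL libraries on the log2(CPM + 0.1) scale, which understates the change of genes with low values. The difference in response is the log2 fold change in HBL1 minus that in Karpas422. It was tested with limma over all genes, and a gene was called when its Benjamini-Hochberg adjusted p was under 0.05 and the difference exceeded 1.5-fold. A negative difference means a lower response in HBL1 relative to Karpas422, either a larger fall or a smaller rise.

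SIRT3 is an NAD-dependent lysine deacetylase of the mitochondrial matrix that acts on enzymes of glutamine use, the TCA cycle and respiration. ATF4 is the transcription factor of the amino acid response, which drives genes for amino acid synthesis, uptake and tRNA charging. ABC-type lymphomas are known for chronic signalling from the B-cell receptor to NF-kappaB, with IRF4 expressed, whereas germinal centre-type cells express BCL6, MME and SERPINA9.

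SIRT3 (hg19 chr11:215030-236931, minus strand) was lower with each hairpin in both lines. HBL1 held 13.5, 14.2 and 16.4 CPM with shCTRL, 2.13, 2.39 and 1.999 with shSIRT3-1 and 2.84, 3.12 and 3.82 with shSIRT3-2. Karpas422 held 9.99, 9.14 and 10.2 CPM with shCTRL, 2.44, 2.79 and 2.57 with shSIRT3-1 and 6.24, 5.32 and 4.41 with shSIRT3-2. No knockdown library reached any control library of its line. The fall was larger in HBL1: its log2 fold changes were -2.70 with shSIRT3-1 and -2.14 with shSIRT3-2, against -1.87 and -0.88 in Karpas422, and the difference in response was -1.05 (SE 0.18, adjusted p = 0.0017). The knockdown arms nearest in depth were shSIRT3-2 in HBL1 and shSIRT3-1 in Karpas422, whose SIRT3 responses differed by -0.27 (adjusted p = 0.39). Depth of knockdown and cell line therefore cannot be told apart in the main comparison. The nearest arms carry different hairpins, so hairpin and cell line cannot be told apart between them. Values from these arms are given below for the genes chosen by the naming rule that lost their call there. Further list members with a called difference are given without a nearest-arm value, so whether they kept their call there is not shown. ATF4 mRNA was 279.6, 289 and 342 CPM in the HBL1 controls and 329, 372 and 278 CPM in the Karpas422 controls. It fell by 1.20 in HBL1 and by 1.26 in Karpas422 on the log2 scale, and the responses differed by 0.06 (adjusted p = 0.86).

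Markers of the ABC subtype were higher in HBL1 and those of germinal centre cells in Karpas422. The 9 ABC markers summed to between 2895 and 3023 CPM in the HBL1 controls and between 118 and 124 CPM in the Karpas422 controls, and the 9 germinal centre markers to between 194 and 211 and between 1421 and 1758 CPM. With the SIRT3 hairpins the ABC markers summed to between 1761 and 2735 CPM in HBL1, and the germinal centre markers to between 955 and 1409 CPM in Karpas422 and between 111 and 210.3 CPM in HBL1. The part of this in the results was not tested. All 6 B-cell markers were expressed in both lines. The myeloid markers S100A8 and S100A9 and the platelet markers PPBP and PF4 were at 0 in the controls of both lines. Myeloid markers summed to at most 1.10 CPM and erythroid and platelet markers to at most 0.0540 CPM in any library. Epithelial and fibroblast markers, 2 of 6 above 1 CPM (EPCAM and COL1A2), summed in HBL1 to between 18.1 and 23.6 CPM with shCTRL, between 6.24 and 8.82 with shSIRT3-1 and between 41.0 and 66.4 with shSIRT3-2. T and NK cell markers summed to between 38.7 and 45.3 CPM in the Karpas422 controls, mostly CD3G, and to between 21.6 and 41.7 CPM in its knockdown libraries; the part of these and the epithelial and fibroblast markers in the results was not tested. Between 28694398 and 53405456 reads per library fell on genes. In every group but Karpas422 shCTRL, replicate 3 stood apart from replicates 1 and 2, with a chi-square per degree of freedom between 40.6 and 282 against between 6.74 and 18.9. The most distant library was HBL1 shSIRT3-1 replicate 3. Karpas422 shCTRL replicate 1 stood apart in the interferon-stimulated genes, as described below.

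SIRT3 knockdown changed more genes in HBL1 than in Karpas422, and on the deposited scale most called differences were lower in HBL1 relative to Karpas422, an excess that turned after quantile normalization (667 lower and 739 higher). In HBL1, 2077 genes fell (16.4%) and 775 rose (6.13%), 22.5% of those tested. In Karpas422, 1003 fell (7.93%) and 472 rose (3.73%), 11.7%. The difference in response was called for 1145 genes, 9.05% of those tested, with 761 lower in HBL1 relative to Karpas422 (6.01%) and 384 higher (3.04%). Both medians over all genes were near 0 as deposited, with a response of -0.09 in HBL1 and -0.04 in Karpas422.

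Of the 1145 genes, 677 responded in HBL1 only, 183 in Karpas422 only, 22 in opposite directions and 62 in the same direction with unequal size, and 201 had a called difference with a called response in neither line. The HBL1 group held 529 falls and 148 rises, and the Karpas422 group held 106 falls and 77 rises. A response that was not called is not shown to be absent, so a stricter count was made of genes whose 95% interval of the response in the other line lay within 1.5-fold, which left 364 of the HBL1 genes and 95 of the Karpas422 genes. Of the 529 genes that fell in HBL1, 228 stayed under 1 CPM on average in all 3 Karpas422 groups, so a fall could hardly be measured there. Among the 183 Karpas422 genes, 45 stayed under 1 CPM in HBL1. In libraries of bulk cells, fewer cells that express a gene and less RNA of it per cell cannot be told apart.

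**Figure D1:**
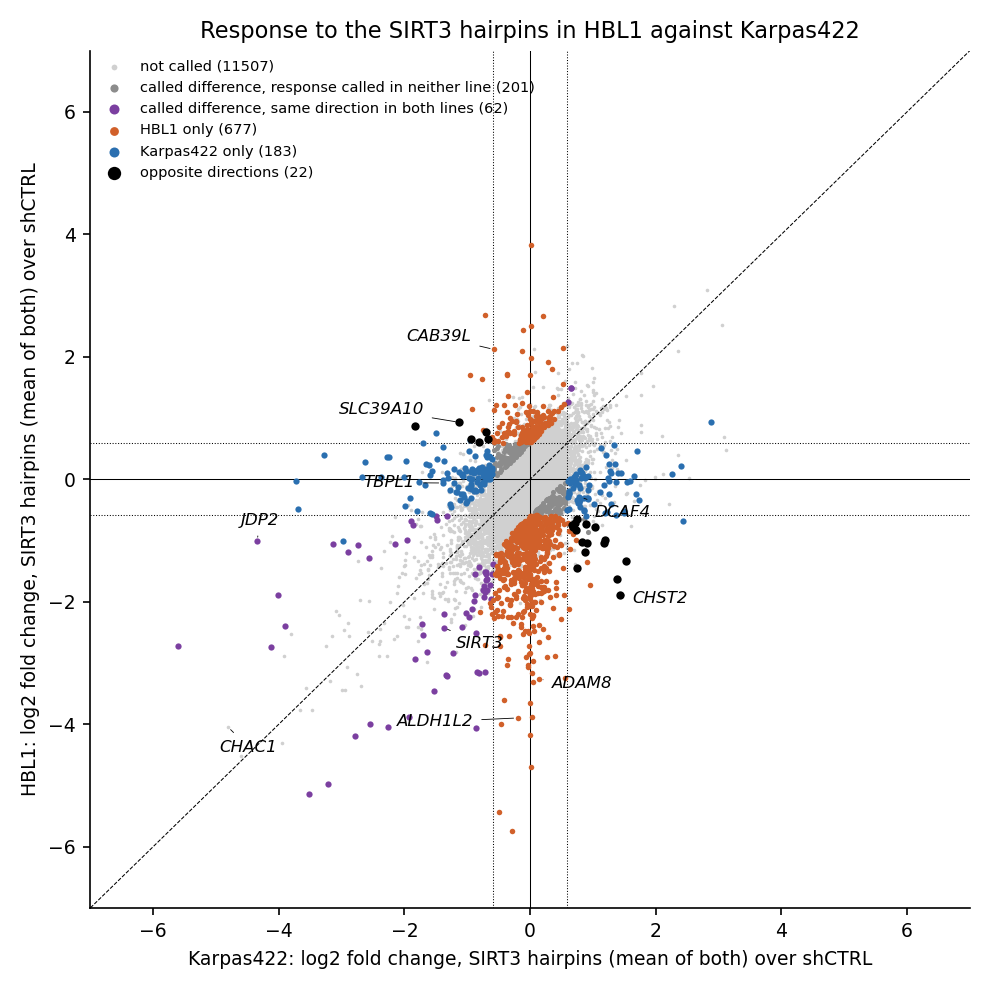
Log2 fold change of each of the 12652 tested genes in HBL1 (vertical axis) against Karpas422 (horizontal axis), SIRT3 hairpins over shCTRL. Each point is a gene coloured by its class, with the number of genes in brackets; the dashed line marks equal responses and the dotted lines mark 1.5-fold. The 677 genes that responded in HBL1 only form a column below and above 0, and the 22 genes with opposite responses lie at the upper left and lower right.

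The number of calls depended on single libraries. Leaving out a single library gave between 706 calls, without HBL1 shCTRL replicate 2, and 1566, without HBL1 shSIRT3-1 replicate 3. With replicate 1, 2 or 3 left out of every group, 13, 55 and 2049 genes were called. The naming rule chose the genes with the largest difference in each class among genes expressed in both lines, up to 5 a class. Their difference had to be called with each hairpin alone. In the 1-line classes the response of that line had to be called with each hairpin too, which was not required in the opposite classes. The rule also chose up to 3 called members of each gene list, and further list members are named below.

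Among the genes chosen for the HBL1-only class that fell, the largest difference belonged to ADAM8 (hg19 chr10:135075924-135090372), a membrane metalloprotease of leukocytes. HBL1 held 32.6, 34.6 and 17.99 CPM with shCTRL, 4.19, 5.66 and 2.79 with shSIRT3-1 and 1.91, 2.35 and 1.398 with shSIRT3-2, so every knockdown library lay below every control. Karpas422 held 0.966, 1.11 and 0.901 CPM with shCTRL, 1.22, 1.2995 and 1.96 with shSIRT3-1 and 0.849, 0.891 and 0.737 with shSIRT3-2, above the controls with shSIRT3-1 and below them with shSIRT3-2, neither called. The difference was -3.41 (SE 0.34, adjusted p = 2.4e-05). GAB2, an adaptor that links receptors to PI3K and SHP2, also fell in HBL1 only. It measured 29.4, 31.8 and 28.1 CPM with shCTRL, 5.78, 7.35 and 7.23 with shSIRT3-1 and 11.5, 11.1 and 15.9 with shSIRT3-2 in HBL1. Karpas422 held 4.36, 6.14 and 6.18 CPM with shCTRL, 5.56, 5.74 and 6.94 with shSIRT3-1 and 8.63, 6.74 and 12.5 with shSIRT3-2. The HBL1 groups did not overlap, 4 of 6 Karpas422 knockdown libraries lay above all controls, and the difference was -2.09 (SE 0.25, adjusted p = 9.9e-05).

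FAM43A had HBL1 values of 5.36, 5.42 and 5.604 CPM with shCTRL, 1.72, 1.96 and 2.05 with shSIRT3-1 and 0.537, 0.416 and 0.479 with shSIRT3-2, with no overlap. In Karpas422, which expressed it more, they were 94.1, 92.5 and 112 CPM with shCTRL, 129.8, 155 and 165 with shSIRT3-1 and 90.3, 101 and 57.5 with shSIRT3-2, above the controls with shSIRT3-1 and mixed with them with shSIRT3-2, and the difference was -2.52 (SE 0.21, adjusted p = 4.2e-06). LAT2, an adaptor below the B-cell receptor, was at 120.5, 127 and 107 CPM in the HBL1 controls and between 10.1 and 40.6 CPM in the 6 knockdown libraries. Its Karpas422 libraries lay between 0.560 and 2.06 CPM, and the difference was -2.09 (SE 0.46, adjusted p = 0.0084). NLRP11, of the NOD-like receptor family, had HBL1 controls at 128, 138 and 141 CPM, all above the knockdown libraries at 10.3 to 42.7 CPM. The Karpas422 libraries lay between 1.69 and 4.88 CPM, and the difference was -2.08 (SE 0.41, adjusted p = 0.0038). For LAT2 and NLRP11 the level in Karpas422 was low in every library, so the response there rests on few reads. The classes rest on the mean of both hairpins, and some of these genes were called in Karpas422 with 1 hairpin: FAM43A rose with shSIRT3-1, GAB2 rose with shSIRT3-2 and LAT2 fell with shSIRT3-2.

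The genes that rose in HBL1 only included CAB39L (hg19 chr13:49882786-50018200), which encodes a scaffold that activates the kinase LKB1. HBL1 held 2.29, 2.99 and 2.68 CPM with shCTRL, 13.4, 7.7998 and 16.8 with shSIRT3-1 and 12.3, 8.22 and 15.3 with shSIRT3-2. Karpas422 held 44.5, 40.7 and 56.4 CPM with shCTRL, 25.04, 26.1 and 21.6 with shSIRT3-1 and 38.1, 40.9 and 43.7 with shSIRT3-2. All 6 HBL1 knockdown libraries lay above the controls, 4 of 6 Karpas422 knockdown libraries lay below theirs, and the difference was 2.69 (SE 0.30, adjusted p = 4.6e-05). RHOBTB2, an adaptor for the CUL3 ubiquitin ligase, measured 18.1, 17.2 and 20.8 CPM with shCTRL, 86.2, 50.3 and 88.1 with shSIRT3-1 and 199, 147 and 261 with shSIRT3-2 in HBL1. Its Karpas422 libraries ranged from 95.9 to 299 CPM with no separation of the groups, and the difference was 2.47 (SE 0.36, adjusted p = 0.00036). FMNL2, a formin that elongates actin filaments, was at 55.2, 51.7 and 60.4 CPM in the HBL1 controls and between 98.9 and 159 CPM with the SIRT3 hairpins. In Karpas422 it lay between 2.06 and 4.94 CPM, and the difference was 1.64 (SE 0.27, adjusted p = 0.0011). THBS2, a secreted matrix glycoprotein, and TMEM229B, a membrane protein, differed by 2.07 and 2.55 (adjusted p = 0.00012 and 0.0069). TMEM229B was at 0.183, 0.362 and 0.164 CPM in the HBL1 controls, so its fold change rests on low values. In Karpas422, CAB39L and THBS2 fell with shSIRT3-1 alone.

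The genes described that fell in Karpas422 only included AIMP2, a scaffold of the aminoacyl-tRNA synthetase complex. Karpas422 held 27.9, 31.5 and 30.9 CPM with shCTRL, 12.1, 12.2 and 12.4 with shSIRT3-1 and 12.8, 12.7 and 10.004 with shSIRT3-2, with every knockdown library below every control. HBL1 held 9.54, 9.69 and 9.68 CPM with shCTRL, 8.53, 10.5 and 4.63 with shSIRT3-1 and 14.9, 15.1 and 13.4 with shSIRT3-2, above the controls with shSIRT3-2 and on both sides of them with shSIRT3-1. The difference was 1.43 (SE 0.25, adjusted p = 0.0018). TBPL1 (hg19 chr6:134273308-134311570), a TBP-related factor of basal transcription, also fell in Karpas422 only. Karpas422 held 59.7, 73.4 and 55.4 CPM with shCTRL, 24.3, 22.5 and 21.2 with shSIRT3-1 and 25.6, 24.5 and 24.7 with shSIRT3-2. HBL1 held 15.7, 16.4 and 11.1 CPM with shCTRL, 13.5, 13.7 and 9.82 with shSIRT3-1 and 16.3, 14.9 and 14.4 with shSIRT3-2, with overlap, and the difference was 1.33 (SE 0.19, adjusted p = 0.00031). RNF185, a ubiquitin ligase of the endoplasmic reticulum, fell from 48.3, 60.03 and 49.5 CPM in the Karpas422 controls to between 19.7 and 29.5 CPM, and the difference was 1.21 (SE 0.15, adjusted p = 9.9e-05). In HBL1 its controls were at 23.03, 23.3 and 22.2 CPM and its knockdown libraries between 23.4 and 28.9 CPM, a log2 fold change of 0.18 that was not called. MAST4, a serine/threonine kinase, and ARFGAP3, a GTPase-activating protein of the Golgi, fell by 1.08 and 1.07 in Karpas422 on the log2 scale, against responses of 0.08 and 0.06 in HBL1, with adjusted p of 0.0049 and 0.00023 for the difference.

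Of the genes that rose in Karpas422 only, GYS1, muscle-type glycogen synthase, had Karpas422 values of 36.6, 25.6 and 39.004 CPM with shCTRL, 55.6, 58.7 and 48.5 with shSIRT3-1 and 68.9, 63.2 and 55.1 with shSIRT3-2. HBL1 held 54.1, 53.3 and 45.4 CPM with shCTRL, 36.4, 37.8 and 34.9 with shSIRT3-1 and 35.9, 35.6 and 42.3 with shSIRT3-2. The groups overlapped in neither line and lay on opposite sides of their controls, although the HBL1 response was not called; the difference was -1.25 (SE 0.17, adjusted p = 0.00025). DCAF4 (hg19 chr14:73393085-73426411), a substrate receptor of the CUL4 ubiquitin ligase, rose from 14.98, 15.4 and 14.1 CPM to 30.3, 28.8 and 33.5 CPM with shSIRT3-1 and 26.6, 21.7 and 22.4 with shSIRT3-2. In HBL1 it was 15.7, 16.9 and 15.2 CPM with shCTRL, 11.7, 12.1 and 11.8 with shSIRT3-1 and 13.2, 13.7 and 14.5 with shSIRT3-2. The difference was -1.17 (SE 0.12, adjusted p = 2.1e-05). IFNAR2, a chain of the type I interferon receptor, had Karpas422 controls at 21.02, 20.9 and 23.2 CPM, all below the knockdown libraries at 34.1 to 55.2 CPM. The HBL1 libraries lay between 12.7 and 16.6 CPM, and the difference was -0.80 (SE 0.16, adjusted p = 0.0045). KIAA0930 and DPP3, the latter a dipeptidyl peptidase that can release NRF2 from KEAP1, differed by -1.36 and -1.03 (adjusted p = 0.0058 and 0.0085). Between the arms nearest in SIRT3 depth the difference of DPP3 was -0.53 and was not called (adjusted p = 0.17). KIAA0930 fell in HBL1 with shSIRT3-2 alone.

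The 22 genes with opposite responses comprised 16 that fell in HBL1 and rose in Karpas422 and 6 with the reverse pattern. These responses were called on the mean of both hairpins. Of the genes described, only SLC39A10 had its response called with each hairpin in both lines. The Karpas422 rise of CHST2, LRP4 and KAZALD1 was called with shSIRT3-2 only, and the HBL1 fall of ASL, LRP4 and KAZALD1 with shSIRT3-1 only. NCF1 was called with shSIRT3-2 only in HBL1 and with shSIRT3-1 only in Karpas422. CHST2 (hg19 chr3:142838613-142842856), a carbohydrate sulfotransferase, differed most among the genes with opposite responses that met the naming rule. HBL1 held 2.14, 2.22 and 1.34 CPM with shCTRL, 0.252, 0.3399 and 0.0991 with shSIRT3-1 and 0.947, 0.648 and 0.807 with shSIRT3-2. Karpas422 held 6.84, 8.34 and 9.88 CPM with shCTRL, 9.18, 11.9 and 23.3 with shSIRT3-1 and 25.4, 25.6 and 77.4 with shSIRT3-2. The HBL1 groups did not overlap, 5 of 6 Karpas422 knockdown libraries lay above all controls, and the difference was -3.32 (SE 0.51, adjusted p = 0.00069). It was -1.85 between the nearest arms (adjusted p = 0.037).

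ASL, argininosuccinate lyase of arginine synthesis and the urea cycle, had no overlap in either line. HBL1 held 6.31, 6.76 and 6.03 CPM with shCTRL, 2.23, 2.34 and 3.296 with shSIRT3-1 and 4.61, 4.44 and 5.51 with shSIRT3-2. Karpas422 held 13.4, 10.4 and 12.7 CPM with shCTRL, 19.1, 20.9 and 17.1 with shSIRT3-1 and 23.5, 21.1 and 20.2 with shSIRT3-2. The difference was -1.57 (SE 0.19, adjusted p = 8.4e-05), and -1.04 between the nearest arms (adjusted p = 0.0034). LRP4, a receptor of the LDL receptor family, NCF1, a subunit of the phagocyte NADPH oxidase, and KAZALD1, a secreted IGFBP-related protein, differed by -2.19, -1.84 and -1.42 (adjusted p = 0.0031, 0.0019 and 0.012). Between the nearest arms LRP4 and KAZALD1 were not called, at -1.34 and -1.07 (adjusted p = 0.06 and 0.061). Reads of NCF1 can be shared with its near-identical pseudogenes, so its value is uncertain. SLC39A10 (hg19 chr2:196440701-196602426), a zinc importer, was the only gene of the reverse pattern that met the naming rule. HBL1 held 11.96, 11.5 and 11.3 CPM with shCTRL, 22.7, 21.2 and 28.4 with shSIRT3-1 and 20.3, 19.7 and 21.4 with shSIRT3-2. Karpas422 held 32.1, 32.1 and 21.5 CPM with shCTRL, 16.7, 20.8 and 14.6 with shSIRT3-1 and 9.84, 11.5 and 7.70 with shSIRT3-2. Every knockdown library lay above the controls in HBL1 and below them in Karpas422, and the difference was 2.06 (SE 0.22, adjusted p = 2.9e-05).

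**Figure D2:**
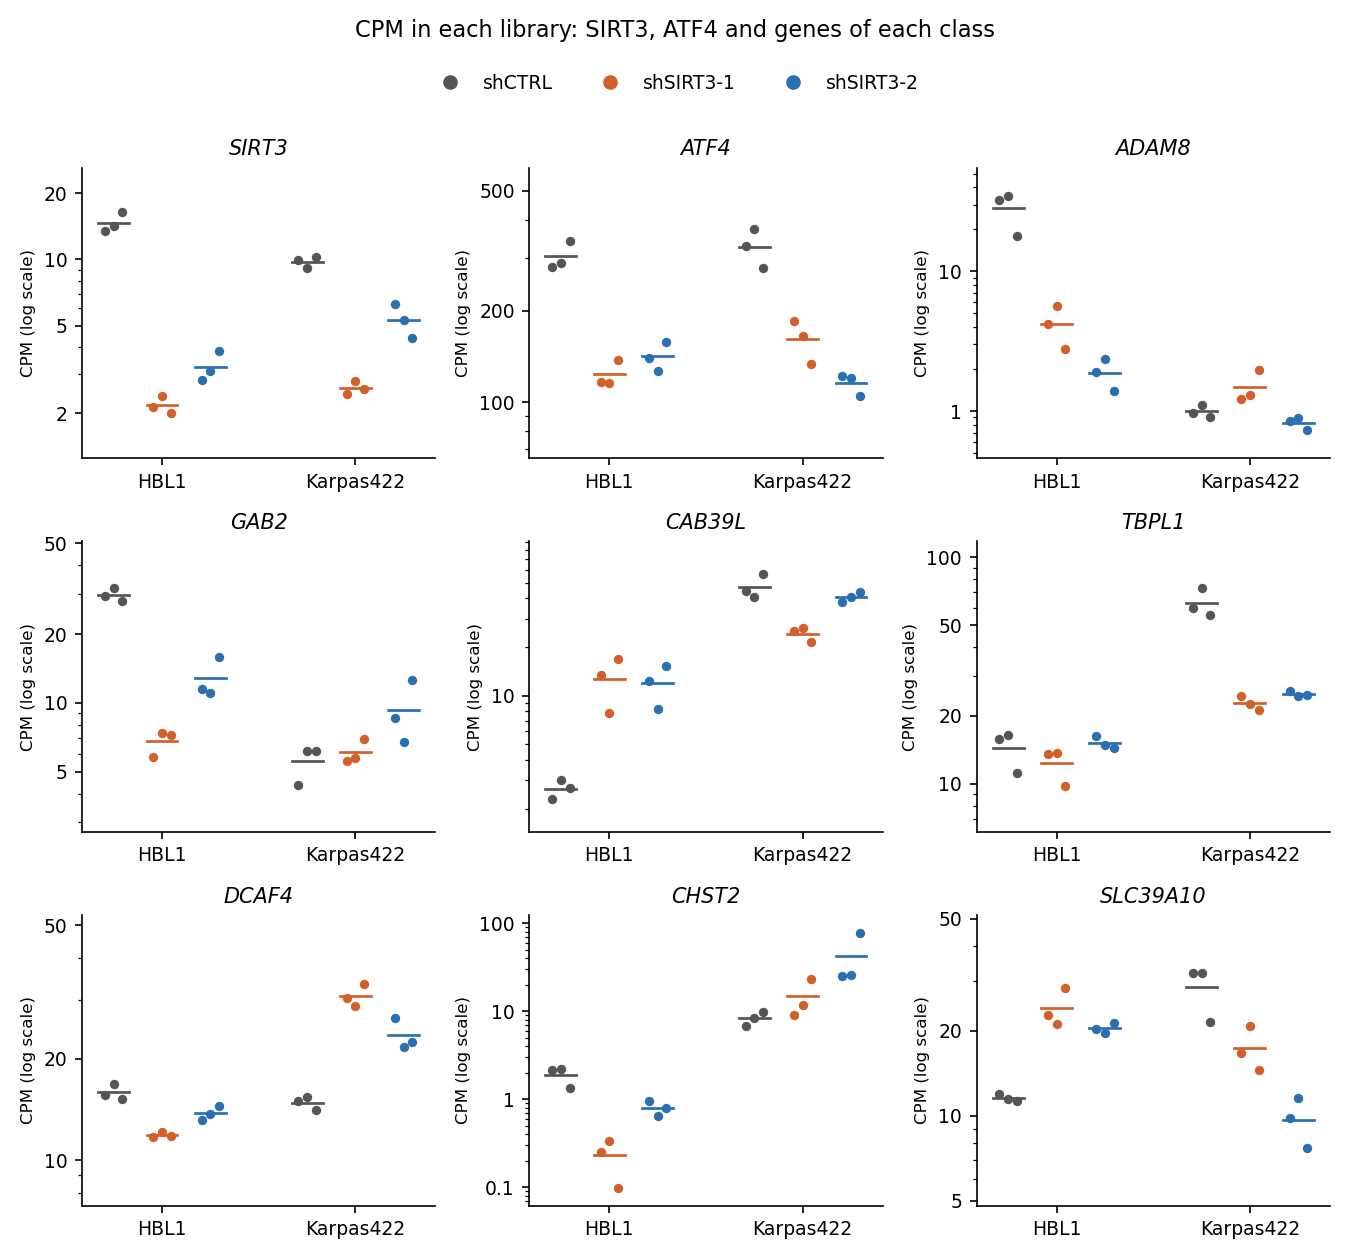
CPM of SIRT3, ATF4 and genes of each class in each of the 18 libraries, on log axes. Points are libraries in the order of replicates 1 to 3, coloured by hairpin, and bars are means of 3 replicates. ADAM8 and GAB2 were lower with both hairpins in HBL1 only, TBPL1 in Karpas422 only, and SLC39A10 was higher in HBL1 and lower in Karpas422.

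Pathways were described with 26 gene lists, whose 866 tested members included 91 called genes. The share of called members was highest among ATF4 targets (32.5%) and B-cell receptor genes (28.6%), against 9.05% of all genes tested. None of the 77 cytosolic ribosomal protein genes, 20 MHC class II genes or 26 genes of purine and pyrimidine synthesis was called by limma; 4, 3 and 3 of them had an unadjusted p under 0.05, edgeR called 0, and DESeq2 called 1, an MHC class II gene. Cell cycle and replication genes had 1 call of 52 (POLA1, 0.62), sterol and fatty acid synthesis 1 of 33 (MSMO1, 1.03), cytosolic aminoacyl-tRNA synthetases 1 of 20 (NARS, 0.65), the TCA cycle, pyruvate and glutamine entry 1 of 37 (SDHA), glycolysis and hypoxia 1 of 34 (PFKM, 0.68), and the BCL2 family 1 of 17 (BCL2, -0.76). With shSIRT3-1 alone, BCL2 was not called (-0.11, limma adjusted p = 0.62), nor were POLA1 (0.41) and NARS (0.42). With shSIRT3-2 alone the BCL2 difference was -1.40.

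**Figure D3:**
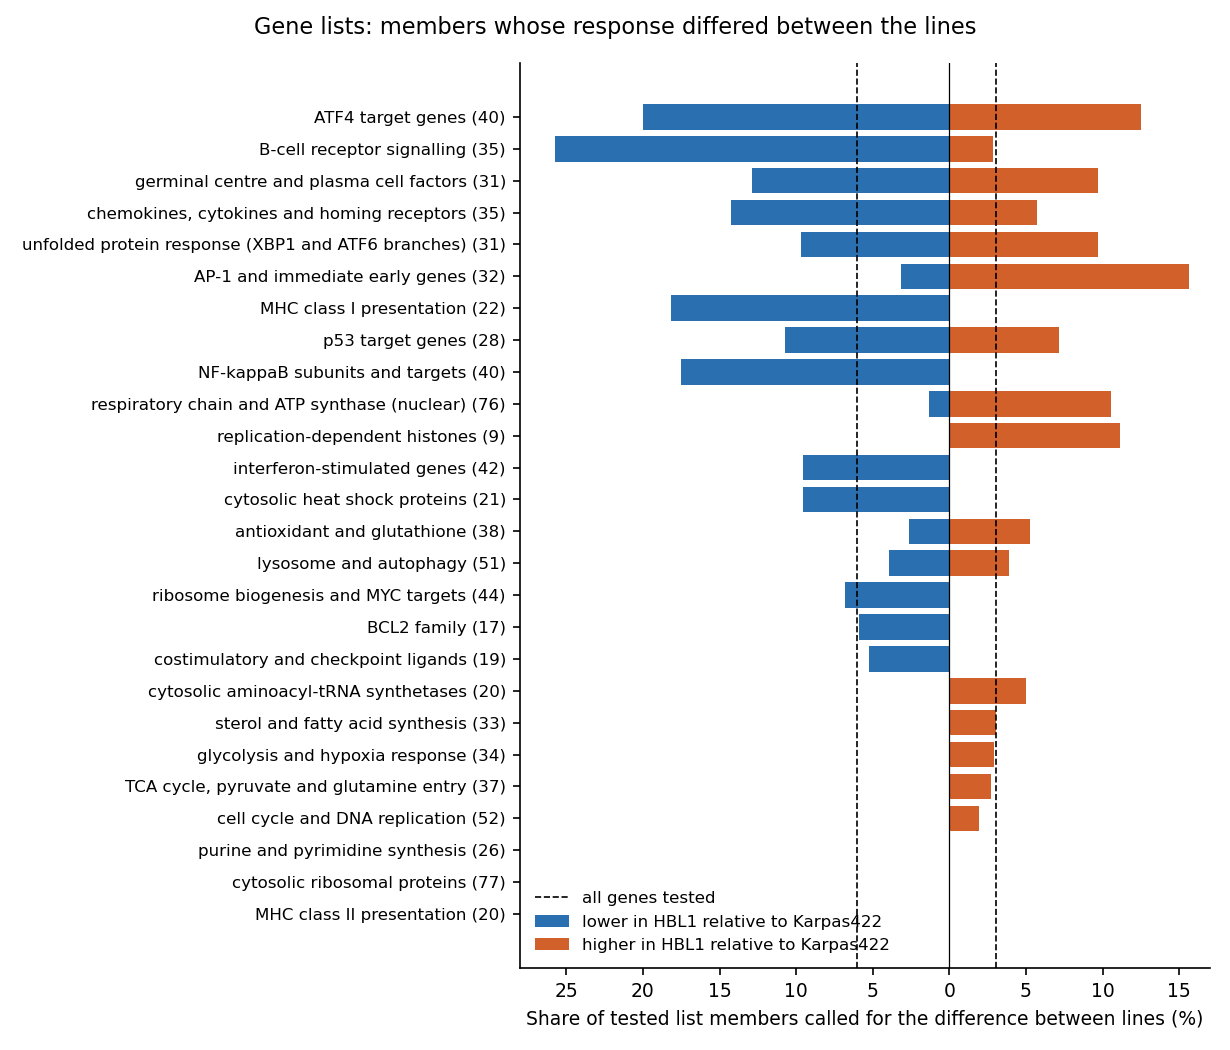
Share of the tested members of each gene list (number in brackets) whose response differed between the lines, in percent. Bars to the left are members lower in HBL1 relative to Karpas422, bars to the right are members higher, and the dashed lines mark the shares over all genes tested, 6.01% and 3.04%. ATF4 targets, B-cell receptor genes, MHC class I genes and NF-kappaB genes extend furthest to the left, and immediate early genes furthest to the right.

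Most ATF4 targets fell in both lines, some further in one line than in the other. Of 40 tested targets, 34 were called lower in HBL1 and 33 in Karpas422, with median log2 fold changes of -2.37 and -1.79. Over all genes, 16.4% were lower in HBL1 and 7.93% in Karpas422. The median difference was -0.01, against -0.04 over all genes tested. For core targets the difference was -0.14 for PSAT1 of serine synthesis, 0.55 for asparagine synthetase and 0.77 for the glutathione-degrading enzyme CHAC1, none called (adjusted p = 0.86, 0.43 and 0.35). In all, 8 targets were lower in HBL1 relative to Karpas422 and 5 were higher, against 6.01% and 3.04% of all genes.

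ALDH1L2 and STC2 were expressed in HBL1 and at most in traces in Karpas422. The mitochondrial folate enzyme ALDH1L2 was at 221, 248 and 330.0 CPM in the HBL1 controls, 13.8, 16.4 and 6.37 with shSIRT3-1 and 26.8, 27.9 and 26.6 with shSIRT3-2, and at or below 0.179 CPM in every Karpas422 library. The secreted hormone STC2 was at 29.1, 28.8 and 25.1 CPM in the HBL1 controls and between 1.78 and 3.53 CPM with the SIRT3 hairpins, and at or below 0.0179 CPM in Karpas422. Their differences were -3.70 and -3.35, which for a gene near 0 in Karpas422 is the HBL1 response itself. The other 6 fell in both lines and further in HBL1, with differences of -2.30 for the lipoprotein receptor VLDLR, -1.95 for the mTORC1 inhibitor DDIT4, -1.86 for the cystine transporter SLC7A11, -1.42 for cystathionine gamma-lyase (CTH), -1.10 for mitochondrial PEP carboxykinase (PCK2) and -0.84 for phosphoserine phosphatase (PSPH). SLC7A11 held 14.2, 16.02 and 9.68 CPM in the HBL1 controls and at most 3.05 CPM with the SIRT3 hairpins. In Karpas422 it was 42.2, 56.04 and 37.2 CPM with shCTRL, 10.3, 10.8 and 9.48 with shSIRT3-1 and 21.3, 26.3 and 48.1 with shSIRT3-2. Its difference was -0.13 between the nearest arms (adjusted p = 0.85), where it was not called.

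Targets that fell further in Karpas422 were led by JDP2, a bZIP repressor of the AP-1 family. It was 15.2, 10.8 and 16.8 CPM with shCTRL, 1.02, 1.08 and 0.212 with shSIRT3-1 and 0.415, 0.566 and 0.703 with shSIRT3-2 in Karpas422. HBL1 held 26.1, 21.9 and 19.1 CPM with shCTRL, 6.91, 8.74 and 5.02 with shSIRT3-1 and 19.3, 17.1 and 16.9 with shSIRT3-2. The Karpas422 groups did not overlap, 5 of 6 HBL1 knockdown libraries lay below the controls, and the difference was 3.33 (SE 0.47, adjusted p = 0.00028). CBS, cystathionine beta-synthase, was at 2.42, 2.82 and 2.69 CPM in the Karpas422 controls and between 0.144 and 0.615 CPM with the SIRT3 hairpins, and it stayed at or under 0.0991 CPM in HBL1, so its difference of 2.93 is the Karpas422 fall itself. The bZIP factor ATF5, the peptide hormone ADM2 and the tRNA synthetase NARS differed by 1.51, 1.38 and 0.65.

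B-cell receptor genes were lower in HBL1 relative to Karpas422 in 9 of 35 tested members and higher in 1. Over all genes tested, 6.01% were lower and 3.04% higher. The lower members were CR2, LAT2, CD72, NFATC2, PRKCB, BLNK, FYN, PIK3R1 and PIK3CD, with differences from -2.69 to -0.69. The median difference over the 35 was -0.26. NFATC2, a calcium-dependent transcription factor below the receptor, had overlapping levels in the controls of both lines and fell in HBL1 only. HBL1 held 75.9, 80.1 and 82.9 CPM with shCTRL, 28.6, 29.2 and 22.4 with shSIRT3-1 and 22.6, 25.4 and 24.6 with shSIRT3-2. Karpas422 held 67.2, 63.2 and 98.6 CPM with shCTRL, 63.7, 64.5 and 48.9 with shSIRT3-1 and 66.03, 63.2 and 60.2 with shSIRT3-2. The HBL1 groups did not overlap and the difference was -1.35 (SE 0.19, adjusted p = 0.00026). The adaptor BLNK fell by 1.21 in HBL1 on the log2 scale, and its response in Karpas422 was -0.46. PRKCB, a kinase that links the receptor to NF-kappaB, instead rose in Karpas422 (0.92), with 0.05 in HBL1. CD79A, a signalling chain of the receptor, was the member with a higher response in HBL1, at 277, 261 and 389.8 CPM in the controls and between 460 and 668 CPM with the SIRT3 hairpins. Its difference was 1.10 (SE 0.27, adjusted p = 0.014), and 0.69 between the nearest arms, not called (adjusted p = 0.13).

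CD72, an inhibitory coreceptor of B cells, rose with shSIRT3-1 and fell with shSIRT3-2 in HBL1. HBL1 held 41.5, 41.3 and 57.1 CPM with shCTRL, 81.96, 79.4 and 61.01 with shSIRT3-1 and 16.3, 19.5 and 14.1 with shSIRT3-2, above the controls with shSIRT3-1 and below them with shSIRT3-2. Karpas422 held 1.84, 1.58 and 1.21 CPM with shCTRL, 4.51, 4.57 and 5.21 with shSIRT3-1 and 3.75, 3.896 and 2.06 with shSIRT3-2, above the controls with both. The difference was -1.69 (SE 0.27, adjusted p = 0.001). It was -0.91 with shSIRT3-1 alone, not called, and -2.47 with shSIRT3-2 alone. CR2, the complement receptor CD21, never exceeded 2.44 CPM in any library.

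Of 40 tested NF-kappaB genes 7 were called, against 9.05% of all genes, and the median difference of the list was -0.49. Against 6.01% of all genes, all 7 were lower in HBL1 relative to Karpas422. They were CCL22 (-2.70), TNFAIP2 (-1.52), STAT5A (-1.52), IRF4 (-1.27), the subunit REL (-1.13), CD44 (-1.04) and the caspase-8 regulator CFLAR (-0.72). IRF4, a marker of the ABC subtype, held 405, 388 and 343 CPM with shCTRL, 168, 195 and 72.7 with shSIRT3-1 and 169.8, 212 and 157 with shSIRT3-2 in HBL1, with no overlap, and was at or below 0.0464 CPM in every Karpas422 library. CCL22, a chemokine for CCR4, was between 30.7 and 105 CPM in the HBL1 controls and between 1.72 and 20.9 CPM with the SIRT3 hairpins, and at or below 0.0106 CPM in Karpas422. TNFAIP2 was at or below 0.0375 CPM in every Karpas422 library and CD44 averaged 0.0284 CPM in its controls, so these 4 genes had next to no expression in Karpas422 that could respond. The TNFAIP2 difference was -0.68 with shSIRT3-1 alone, not called (adjusted p = 0.42), and -2.36 with shSIRT3-2 alone. The count of this list moved with the method, with 2 lower by edgeR and 3 lower and 1 higher by DESeq2 on the recovered reads, and 2 without HBL1 shCTRL replicate 2. Over all 12652 genes, edgeR called 532 lower, and DESeq2 called 734 lower and 434 higher. Without HBL1 shCTRL replicate 2, 706 of 12554 genes were called, 439 of them lower. REL and CFLAR averaged 42.7 and 39.5 CPM in the Karpas422 controls and 119 and 268 CPM in the HBL1 controls, and both fell in HBL1 only.

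Among germinal centre and plasma cell factors, 4 of 31 were lower in HBL1 relative to Karpas422 and 3 higher. The shares over all genes were 6.01% and 3.04%. POU2AF1, the B-cell coactivator OBF-1, held 355, 416 and 427 CPM with shCTRL, 209, 266 and 146 with shSIRT3-1 and 139.9, 175 and 89.97 with shSIRT3-2 in HBL1, with no overlap. It held 652, 639 and 649 CPM with shCTRL, 845, 971 and 821 with shSIRT3-1 and 669.9, 786 and 508 with shSIRT3-2 in Karpas422, and the difference was -1.52 (SE 0.28, adjusted p = 0.0028). IRF4 and IKZF3, a zinc finger factor of B cells, were also lower (-1.27 and -0.63). XBP1, the plasma cell and unfolded protein response factor, fell in both lines and further in Karpas422, from 86.3, 72.3 and 98.3 CPM to between 15.9 and 34.0 CPM, against 115, 125 and 172 CPM and between 65.9 and 98.7 CPM in HBL1. Its difference was 1.12 (SE 0.28, adjusted p = 0.017), and 0.80 between the nearest arms, not called (adjusted p = 0.093). HERPUD1, a component of endoplasmic reticulum-associated degradation, fell from 59.7, 68.7 and 56.1 CPM to between 20.9 and 35.3 CPM in Karpas422 only, with a difference of 1.14 (SE 0.25, adjusted p = 0.007). SDC1, the plasma cell marker CD138, rose in Karpas422 from 8.599, 7.84 and 9.88 CPM to 11.4, 12.3 and 11.4 with shSIRT3-1 and 23.4, 22.7 and 23.5 with shSIRT3-2. HBL1 held 0.711, 0.739 and 1.24 CPM with shCTRL, 0.121, 0.113 and 0.0901 with shSIRT3-1 and 0.713, 0.865 and 1.42 with shSIRT3-2, a fall with shSIRT3-1 alone. The difference of -1.95 shrank to -0.29 between the nearest arms and was not called there (adjusted p = 0.55).

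Interferon-stimulated genes tended to a lower response in HBL1 than in Karpas422, with few single genes called. In Karpas422, 12 of 42 tested genes rose and 1 fell, against 3.73% and 7.93% of all genes, with a median log2 fold change of 0.89. In HBL1, 3 rose and 2 fell, against 6.13% and 16.4% of all genes, with a median of -0.28. The median difference was -1.26, against -0.04 over all genes, and 38 of the 42 differences were below 0. Only 4 genes were called for the difference, 9.52% of the list against 9.05% of all genes: ISG15 (-2.04), the master regulator IRF7 (-1.78), STAT2 (-1.42) and SAMD9L (-1.32).

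Many promoters of these genes hold the same letters. Interferon acts through ISGF3, a complex that holds STAT2 and IRF9 and binds the interferon-stimulated response element. Its letters, GAAA followed after 2 bases of any kind by GAAA, searched on both strands from 250 bases before to 50 bases after the RefSeq start (GRCh38.p14), were found in 21 of the 31 interferon-stimulated genes with a promoter in the table (67.7%), in 9 of 18 MHC class I genes and in 3.02% of the 9502 tested genes with one. The ISG15 window (chr1:1013247-1013546, plus strand) is shown because it holds overlapping copies of the element, in capitals.
ISG15: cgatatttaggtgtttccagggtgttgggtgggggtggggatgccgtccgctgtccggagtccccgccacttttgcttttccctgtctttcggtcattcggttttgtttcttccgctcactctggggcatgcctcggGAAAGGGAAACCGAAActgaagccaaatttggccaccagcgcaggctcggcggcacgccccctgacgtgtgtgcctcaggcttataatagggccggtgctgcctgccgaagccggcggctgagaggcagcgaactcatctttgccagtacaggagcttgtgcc
A match is a description of these letters and does not show that a factor binds.

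The responses of ISG15, a ubiquitin-like modifier, depended on libraries and hairpins. HBL1 held 173, 159.8 and 125 CPM with shCTRL, 83.3, 63.98 and 23.5 with shSIRT3-1 and 266, 195 and 190.0 with shSIRT3-2, below the controls with shSIRT3-1 and above them with shSIRT3-2. Karpas422 held 331, 81.3 and 52.5 CPM with shCTRL, 256, 228 and 361 with shSIRT3-1 and 340.4, 382 and 365 with shSIRT3-2. The first Karpas422 control lay among the knockdown libraries and the other controls lay below all of them. The difference was -2.04 (SE 0.63, adjusted p = 0.046). It was -0.79 between the nearest arms, not called (adjusted p = 0.48). STAT2 was at 117, 121 and 174 CPM with shCTRL, 81.4, 84.5 and 66.1 with shSIRT3-1 and 96.5, 90.7 and 79.3 with shSIRT3-2 in HBL1, with no overlap. Karpas422 held 92.6, 55.7 and 54.2 CPM with shCTRL, 81.2, 91.05 and 101 with shSIRT3-1 and 108, 122 and 150.2 with shSIRT3-2, where 4 of 6 knockdown libraries lay above all controls. STAT2 fell in HBL1 and rose in Karpas422, with a difference of -1.42 (SE 0.24, adjusted p = 0.0016).

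The list as a whole moved with that control. Without Karpas422 shCTRL replicate 1 the median difference of the list was -1.77 and 26 of 42 genes were called, all lower in HBL1 relative to Karpas422. At that setting 910 of 12624 genes tested were called, 609 of them lower. That library was singled out by these same genes, so the larger count is not separate evidence. The hairpins of HBL1 also went apart: with shSIRT3-1, 15 genes fell and 1 rose (median -0.93, against 20.4% lower and 9.7% higher over all genes), and with shSIRT3-2, 2 fell and 7 rose (median 0.48, against 17.6% and 8.09%). In Karpas422, 2 rose with shSIRT3-1 and 17 with shSIRT3-2, against 4.25% and 4.88% of all genes, with medians of 0.57 and 1.13. The antiviral enzyme RSAD2 was an exception, with 0.6395, 0.723 and 0.131 CPM with shCTRL, 2.37, 1.17 and 0.423 with shSIRT3-1 and 16.4, 9.59 and 9.48 with shSIRT3-2 in HBL1. It rose in both lines, and its difference was 0.54 (adjusted p = 0.74). Between the nearest arms the list's median difference was -0.12, with 1 gene lower and 1 higher, against 9.41% and 7.67% of all genes.

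MHC class I presentation genes also had a negative median difference. Of 22 tested genes, 4 were lower in HBL1 relative to Karpas422, against 6.01% of all genes. Among them were HLA-B, HLA-E and HLA-F, and the median difference of the list was -0.53. HLA-B, a classical heavy chain that presents peptides to CD8 T cells, held 358, 358 and 287 CPM with shCTRL, 343, 394 and 162 with shSIRT3-1 and 268, 269 and 174 with shSIRT3-2 in HBL1. Karpas422 held 195, 158 and 109.6 CPM with shCTRL, 228, 218 and 292 with shSIRT3-1 and 264, 245 and 300.4 with shSIRT3-2. All 6 knockdown libraries lay above the controls in Karpas422, where HLA-B rose, and 5 of 6 lay below the highest control in HBL1, where its log2 fold change of -0.38 was not called; the difference was -1.16 (SE 0.35, adjusted p = 0.039). With shSIRT3-1 alone the difference was -0.95, not called (adjusted p = 0.12). HLA-F differed by -1.42, but its largest group mean was 2.20 CPM, so its difference rests on low values. Reads of the class I genes can be shared between near-identical members, so their separate values are uncertain.

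**Figure D4:**
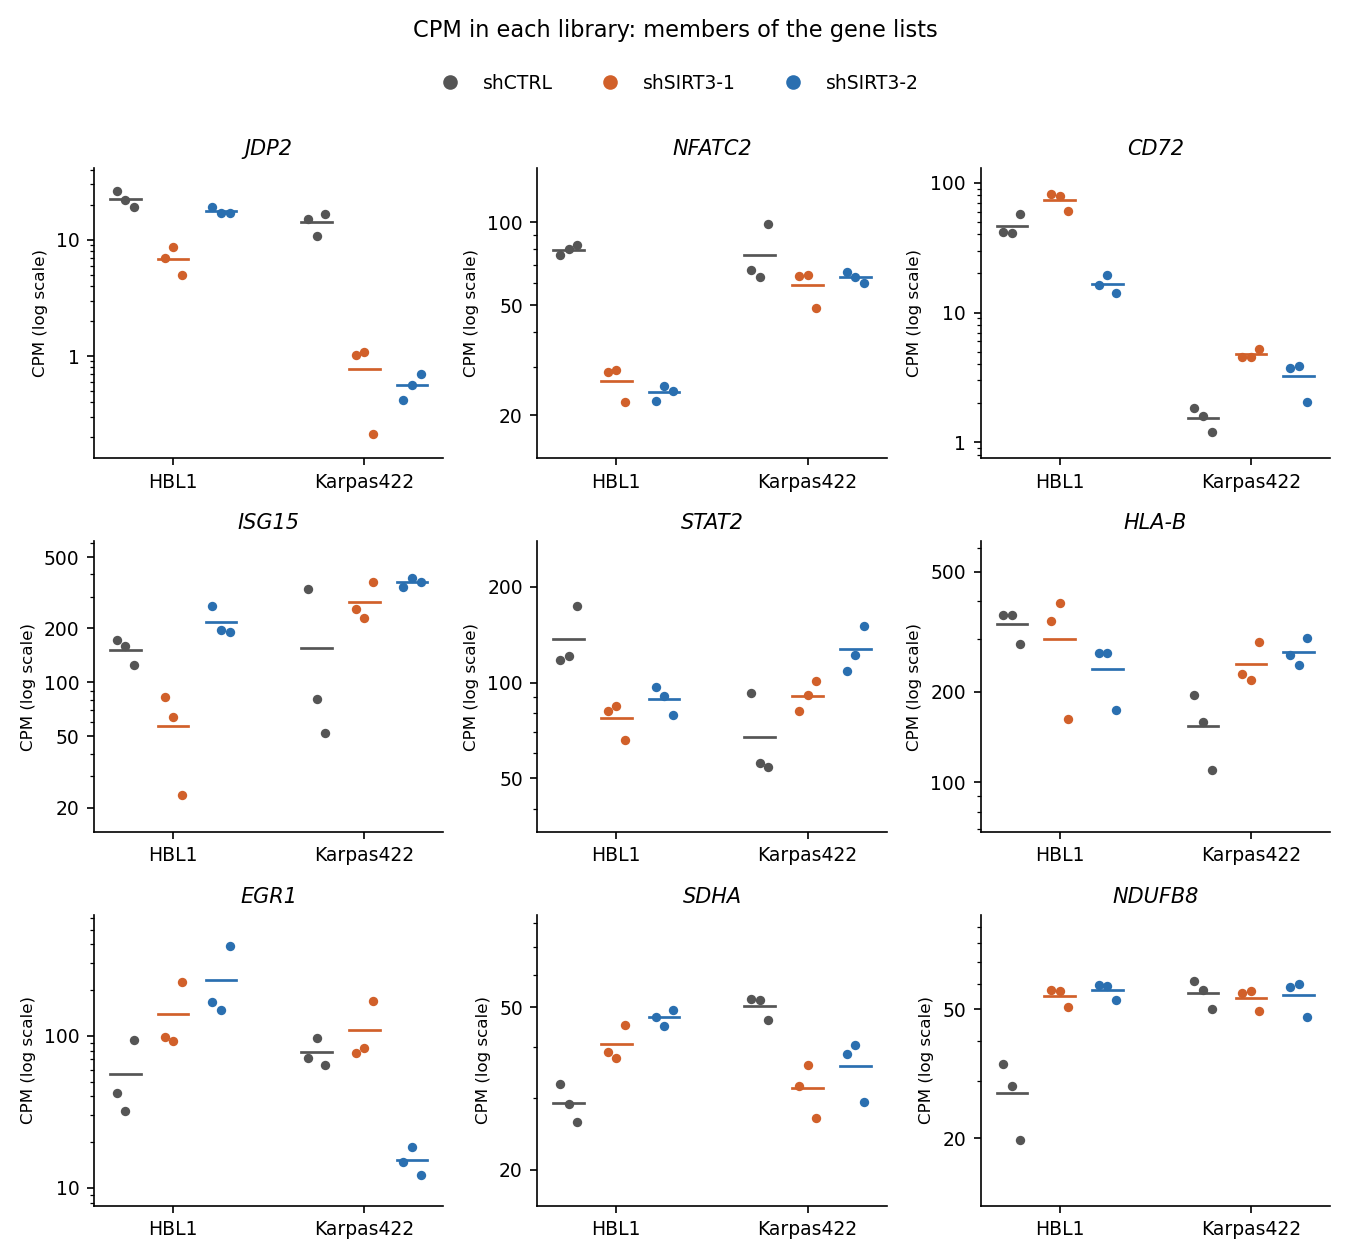
CPM of genes from the lists in each of the 18 libraries, on log axes. Points are libraries in the order of replicates 1 to 3, coloured by hairpin, and bars are means of 3 replicates. NFATC2 was lower in HBL1 only, ISG15 in HBL1 lay on different sides of the controls with the hairpins, EGR1 in Karpas422 lay below the controls with shSIRT3-2 and overlapped them with shSIRT3-1, and the means of HLA-B and SDHA lay on opposite sides of the controls in the lines.

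Immediate early genes, which respond to growth factor and receptor signals within minutes, were called in 6 of 32 tested members, against 9.05% of all genes. FOS, EGR1, the surface protein CD69 and the ERK inhibitors SPRED1 and SPRED2 were higher in HBL1 relative to Karpas422, and KLF10 was lower. EGR1 (hg19 chr5:137801168-137804992) held 42.2, 32.01 and 93.3 CPM with shCTRL, 97.5, 92.8 and 225 with shSIRT3-1 and 166, 147 and 388 with shSIRT3-2 in HBL1, where 5 of 6 knockdown libraries lay above all controls. Karpas422 held 71.8, 97.2 and 64.6 CPM with shCTRL, 76.7, 82.6 and 170.0 with shSIRT3-1 and 14.9, 18.6 and 12.2 with shSIRT3-2. With shSIRT3-2 the Karpas422 libraries lay far below the controls, with shSIRT3-1 they did not, and the response there was 0.42 with shSIRT3-1 and -2.35 with shSIRT3-2. The difference was 2.67 (SE 0.55, adjusted p = 0.0055). FOS held 0.883, 0.535 and 1.11 CPM with shCTRL, 2.22, 1.51 and 8.55 with shSIRT3-1 and 8.199, 5.58 and 26.6 with shSIRT3-2 in HBL1. Karpas422 held 9.21, 11.1 and 2.55 CPM with shCTRL, 9.04, 14.04 and 8.48 with shSIRT3-1 and 1.16, 2.096 and 1.13 with shSIRT3-2. The difference was 3.41 (SE 0.80, adjusted p = 0.011). With shSIRT3-1 alone neither was called, at 0.92 for EGR1 and 1.14 for FOS, and between the nearest arms they were 1.66 (adjusted p = 0.075) and 2.90 (adjusted p = 0.036).
The EGR1 promoter (chr5:138465229-138465528, plus strand) is shown for its serum response elements, the sites of SRF below ERK signalling, known as CArG boxes, in capitals.
EGR1: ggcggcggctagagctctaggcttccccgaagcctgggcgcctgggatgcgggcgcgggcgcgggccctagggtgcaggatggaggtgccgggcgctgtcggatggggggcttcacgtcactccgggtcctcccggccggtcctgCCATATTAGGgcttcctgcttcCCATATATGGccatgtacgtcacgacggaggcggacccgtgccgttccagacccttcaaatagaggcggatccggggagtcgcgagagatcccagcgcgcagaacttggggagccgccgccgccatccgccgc
A CArG box was found in 1.05% of the 9502 promoters, searched on both strands, and in 1 of 25 promoters of the list, that of EGR1, which holds 2. The median difference of the list turned from 0.17 to -0.43 with shSIRT3-1 alone and 0.71 with shSIRT3-2 alone.

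Respiratory chain and ATP synthase genes were called in 9 of 76 tested members, with 8 higher in HBL1 relative to Karpas422, against 3.04% higher over all genes. The 8 comprised 7 complex I subunits (NDUFA5, NDUFA7, NDUFA9, NDUFA12, NDUFB6, NDUFB8 and NDUFB9) and SDHA, the flavoprotein of complex II and also an enzyme of the TCA cycle; NDUFB10 was lower (-0.74). The median difference over the 76 genes was 0.17. NDUFB8 held 34.02, 28.9 and 19.8 CPM with shCTRL, 57.5, 56.9 and 50.9 with shSIRT3-1 and 59.7, 58.9 and 53.5 with shSIRT3-2 in HBL1. Karpas422 held 61.1, 57.4 and 50.1 CPM with shCTRL, 56.2, 57.1 and 49.6 with shSIRT3-1 and 58.8, 60.1 and 47.4 with shSIRT3-2. It rose in HBL1, with no overlap, and was not called in Karpas422, and the difference was 1.09 (SE 0.19, adjusted p = 0.0017). SDHA held 32.4, 28.9 and 26.2 CPM with shCTRL, 38.8, 37.6 and 45.2 with shSIRT3-1 and 47.3, 45.1 and 49.2 with shSIRT3-2 in HBL1. Karpas422 held 52.4, 51.9 and 46.4 CPM with shCTRL, 32.04, 36.1 and 26.8 with shSIRT3-1 and 38.3, 40.3 and 29.3 with shSIRT3-2. The groups did not overlap in either line and lay on opposite sides of the controls, and the difference was 1.17 (SE 0.16, adjusted p = 0.00027), although both responses fell just short of 1.5-fold and were not called. NDUFA7 differed by 0.93 (adjusted p = 0.00023). Between methods, 8 to 10 members were higher with either hairpin (4.97% of all genes with shSIRT3-1 and 4.09% with shSIRT3-2), between the nearest arms (7.67% of all genes), and by edgeR and DESeq2, whereas 0 and 1 were without replicates 1 and 2, when 13 and 55 genes were called in all.

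Called members made up 9.52% of 21 heat shock genes and 17.9% of 28 p53 targets, against 9.05% of all genes tested. The share was 6.82% for 44 ribosome biogenesis and MYC genes. Of the heat shock genes, the chaperones HSPH1 (-0.78) and DNAJA1 (-0.62) rose in Karpas422. Neither was called in HBL1, where their log2 fold changes were 0.56 and 0.50. Between the nearest arms the differences were -0.36 and -0.03, and neither was called (adjusted p = 0.31 and 0.93). Of 28 p53 targets, GADD45A (-2.10), the mitochondrial ferredoxin reductase FDXR (-0.97) and MDM2 (-0.63) were lower in HBL1 relative to Karpas422, and the cell cycle inhibitor CDKN1A (1.71) and the repair factor XPC (0.68) were higher. CDKN1A fell in both lines, from 252, 266 and 305 CPM to between 47.6 and 228 CPM in HBL1 and from 4.44, 6.196 and 4.78 CPM to between 0.226 and 1.496 CPM in Karpas422, so its Karpas422 response rests on low values. The thioredoxin inhibitor TXNIP fell in HBL1 only (-1.90, adjusted p = 0.034), and the MAX partners MNT (-0.98) and MXD3 (-0.95) were the other called members of the 44 ribosome biogenesis and MYC genes.

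Chemokine, cytokine and homing genes were called in 7 of 35 members, against 9.05% of all genes tested. Those lower in HBL1 relative to Karpas422 included CCL22, IL15 (-1.36) and the integrin chains ITGAL (-1.94) and ITGB7 (-1.73), and higher were IL21R (1.97) and the oxysterol receptor GPR183 (1.63). IL21R fell in Karpas422 (-2.98), and in HBL1 all 6 knockdown libraries also lay below the controls, with a log2 fold change of -1.01 that was not called (adjusted p = 0.071). ITGB7 held 45.7, 54.8 and 121 CPM with shCTRL, 35.2, 44.96 and 25.7 with shSIRT3-1 and 7.31, 11.6 and 13.6 with shSIRT3-2 in HBL1. Karpas422 held 68.4, 45.7 and 81.97 CPM with shCTRL, 63.3, 76.98 and 60.3 with shSIRT3-1 and 58.3, 63.7 and 41.8 with shSIRT3-2. The HBL1 groups did not overlap, and the difference was -1.73 (SE 0.41, adjusted p = 0.012). The T-cell costimulator CD86 was the only called gene of 19 costimulatory and checkpoint ligands (-0.87, adjusted p = 0.03), and it was not called between the nearest arms (-0.77, adjusted p = 0.065).

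Unfolded protein response genes were called in 6 of 31 members, against 9.05% of all genes tested. XBP1, HERPUD1 and DERL3 (1.29) were higher in HBL1 relative to Karpas422, and SEL1L (-0.84), ATF6 (-0.60) and SRP54 (-0.82) were lower. Called members made up 7.84% of 51 lysosome and autophagy genes and 7.89% of 38 antioxidant genes, below the 9.05% of all genes tested. Of the lysosome and autophagy genes, the protease CTSH (2.07) and the autophagy protein GABARAP (0.69) were higher in HBL1 relative to Karpas422, and CTSZ (-1.08) and the lysosomal regulator TFEB (-0.70) were lower. CTSH was not called with either hairpin alone (2.06 and 2.08, limma adjusted p = 0.056 for each). Its HBL1 libraries with shSIRT3-1 varied widely (mean 46.2 CPM, SD 39.6). Of 38 antioxidant genes, thioredoxin (TXN, 0.84) and the mitochondrial peroxidase PRDX3 (0.60) were higher and SLC7A11 was lower. TXN was at 18.4, 15.03 and 11.7 CPM in the HBL1 controls and rose with shSIRT3-2 to 44.8, 41.6 and 50.1, with 16.1, 17.1 and 23.6 with shSIRT3-1. Among 9 replication-dependent histone genes, HIST2H2BE was the called member, at 3.34, 2.42 and 3.26 CPM with shCTRL, 17.9, 12.2 and 33.7 with shSIRT3-1 and 2.55, 2.58 and 2.37 with shSIRT3-2 in HBL1. It rose with shSIRT3-1 alone, and its difference of 1.76 was 0.12 between the nearest arms (adjusted p = 0.89).

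The hairpins gave different pictures for several lists, which the average hides. In HBL1, cell cycle and replication genes had a median log2 fold change of -1.04 with shSIRT3-1, where 35 of 52 fell against 20.4% of all genes, and 0.30 with shSIRT3-2, where 1 fell and 6 rose against 17.6% and 8.09% of all genes. In Karpas422 the medians were -0.23 and -0.03. With shSIRT3-1 alone the difference between the lines was called for 1541 genes (12.2%), with shSIRT3-2 alone for 1508 (11.9%), and between the arms nearest in SIRT3 depth for 2161 (17.1%). These comparisons share libraries, and the nearest arms also differ in hairpin, so calls gained or lost there may come from the hairpin, which was not tested. Of the 76 genes reported under the naming rule with a called difference, 50 were also called between the nearest arms, as were 751 of all 1145 called genes. The 76 were chosen by their calls in these same libraries, so the 50 are not separate evidence. Further list members named above are not among the 76. Besides the genes whose lost call is given above, 12 of the 76 were not called there, with adjusted p between 0.063 and 0.56. Their differences there were -2.43 for CCL22, -1.27 for STAT5A, -0.85 for IRF4, -1.11 for IRF7, -0.71 for HLA-E, -1.11 for GADD45A and -0.63 for CTSZ. They were 0.88 for CDKN1A, 0.51 for DERL3, 1.62 for CTSH, 0.64 for IL21R and 0.69 for ITPKB. For some of these the size was close to that of the main comparison, as for CCL22 (-2.70) and HLA-E (-0.74). For others it was smaller than in the main comparison, as for IL21R (1.97), CDKN1A (1.71), DERL3 (1.29) and GADD45A (-2.10). The part of knockdown depth in the lost calls was not tested.

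**Figure D5:**
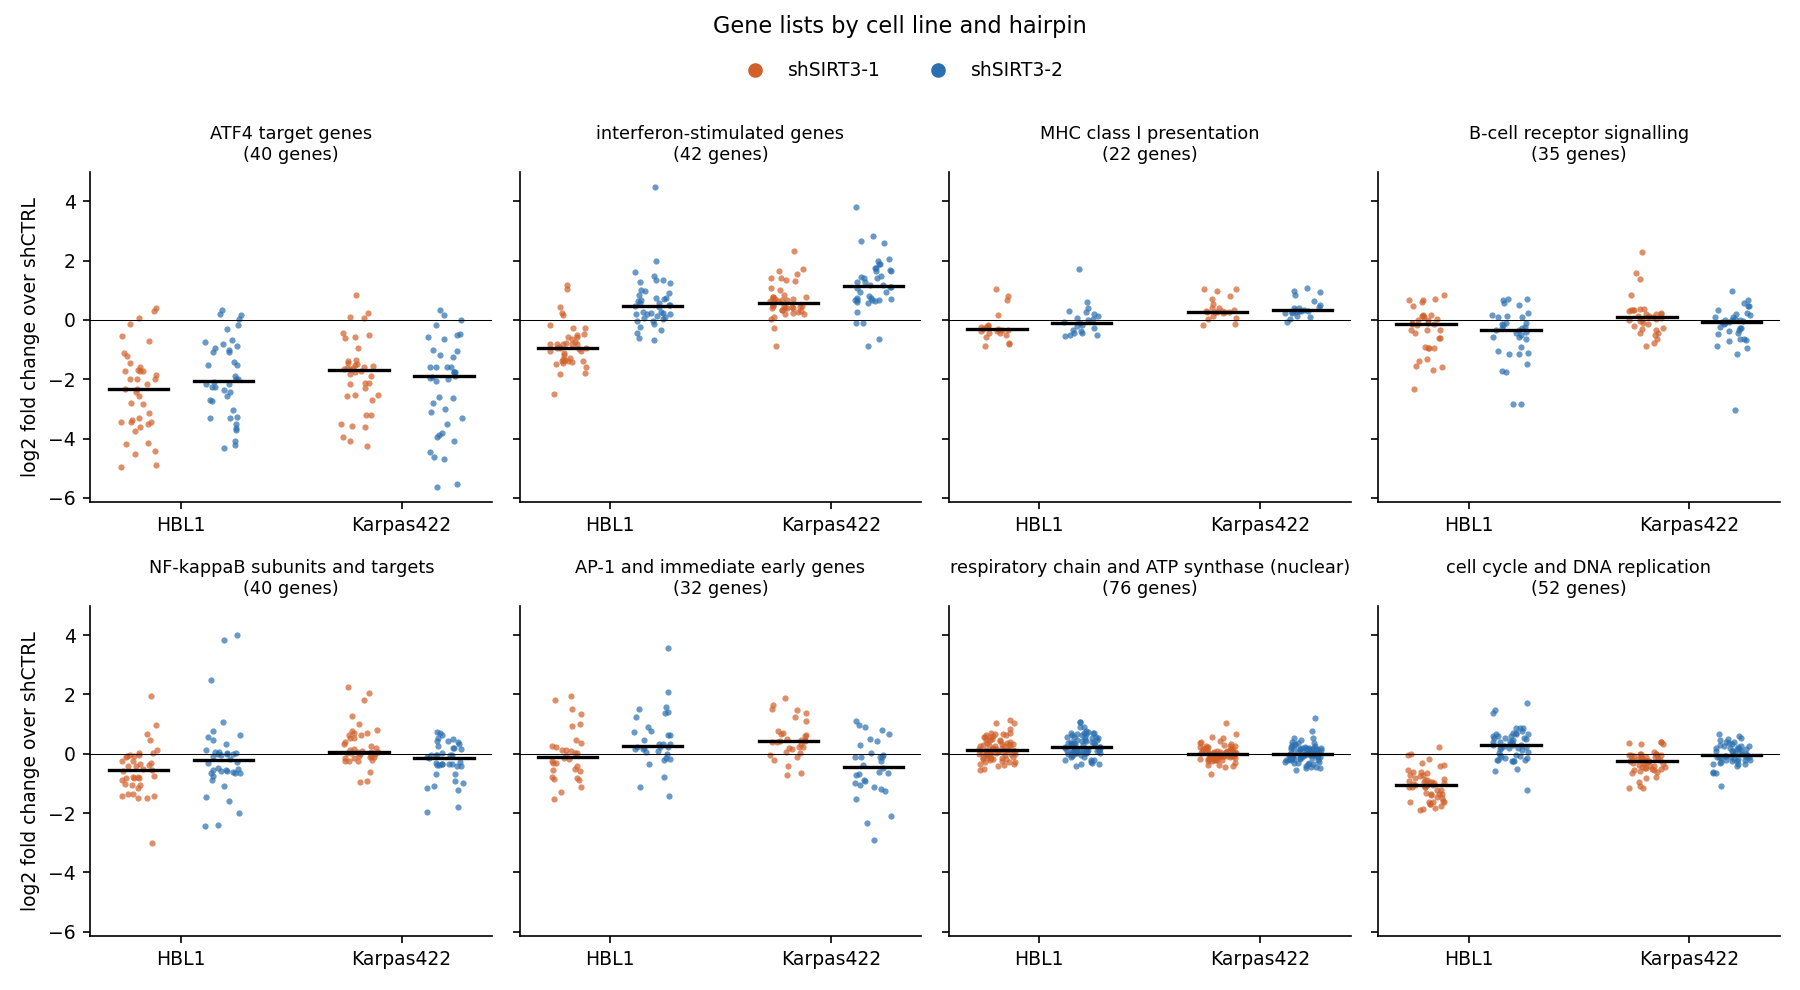
Log2 fold change over shCTRL of the members of 8 gene lists, by cell line and hairpin. Points are genes, spread sideways for visibility, and black bars are medians. The medians of ATF4 targets were below 0 in all 4 arms, that of interferon-stimulated genes was below 0 with shSIRT3-1 in HBL1 and above 0 in the other arms, and that of cell cycle genes with shSIRT3-1 in HBL1 was -1.04.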

How the data were processed

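RNA-seq libraries of HBL1 and Karpas422 with shCTRL, shSIRT3-1 or shSIRT3-2 were analysed, 18 libraries in 6 groups of 3. The authors primed total RNA with random oligos, sequenced paired ends, aligned reads to hg19 with STAR and assigned them to RefSeq genes with Rsubread. The deposited values are named FPKM, but each is a whole multiple of 1 step per library for genes of any length (100% of values within 0.01), so the authors' unit was taken as CPM of a total that the sources used here do not name; reads on genes make up between 40.3% and 45.6% of it. Genes with at least 1 CPM in at least 3 libraries were fitted as log2(CPM + 0.1) with limma 3.58.1 (6 group means, variance trend, R 4.3.3), which was tested on simulated data. The members and the gene lists were chosen with earlier results of these data known. Genes named were SIRT3, ATF4, up to 5 with the largest difference per class and up to 3 called members per list. Both choices required a largest group mean of at least 10 CPM. The genes of a class were expressed in both lines, with the difference called with each hairpin alone. In the 1-line classes the response was also called with each hairpin in the responding line and within 1.5-fold in the other line. Further list members, and CBS, CR2, HLA-F, PSAT1, ASNS, CHAC1 and RSAD2, were named after their values were seen. Alternatives were other pseudocounts, no filter, 2 scalings, replicate blocks, no variance trend, all 27 libraries, left-out libraries, hairpins alone or crossed, and edgeR 4.0.16 and DESeq2 1.42.0 on recovered reads. Positions are from GENCODE gene models lifted to hg19, and promoters from RefSeq. Some genes that the rule named are not reported here. SIRT3 hairpin sequences were not used here, and OCI-Ly1 entered only the fit on 27 libraries and a closing observation.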

Additional observations from a re-analysis of the deposited data

Results flagged for a closer look

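The comparison of the lines is itself a comparison of effects between groups, so every called difference in response qualified for a closer look. That made 1145 genes by limma, of which the 76 reported under the naming rule are listed below. The values below are the log2 fold change in HBL1 minus that in Karpas422. A gene listed for 1 line only was called there on the mean of both hairpins and not called in the other line. It may still respond in the other line. MSMO1 also lay above all controls in all 6 Karpas422 knockdown libraries (log2 fold change 0.52), and HSPH1 in all 6 HBL1 knockdown libraries (0.56). CD86 was called lower in Karpas422 with shSIRT3-1 (-0.63), and FOS, EGR1 and CD79A with shSIRT3-2 (-2.12, -2.35 and -0.67). In HBL1, ISG15 was called lower with shSIRT3-1 (-1.59), and DNAJA1 and HSPH1 higher with shSIRT3-2 (0.85 and 0.79). CD72 was called in HBL1 with each hairpin, higher with shSIRT3-1 (0.67) and lower with shSIRT3-2 (-1.48). All 6 HBL1 knockdown libraries lay below all controls for NARS, GYS1, DCAF4 and IL21R, and above them for RNF185. Further such genes are named above.

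Genes that fell in HBL1 only were ADAM8 (-3.41), FAM43A (-2.52), GAB2 (-2.09), LAT2 (-2.09), NLRP11 (-2.08), ALDH1L2 (-3.70), STC2 (-3.35), CCL22 (-2.70), TNFAIP2 (-1.52), NFATC2 (-1.35), POU2AF1 (-1.52), GADD45A (-2.10), FDXR (-0.97), BCL2 (-0.76), TXNIP (-1.90), MNT (-0.98), CTSZ (-1.08), ITGB7 (-1.73), CD86 (-0.87) and IRF4 (-1.27). Genes that rose in HBL1 only were CAB39L (2.69), TMEM229B (2.55), RHOBTB2 (2.47), THBS2 (2.07), FMNL2 (1.64), MSMO1 (1.03), DERL3 (1.29), HIST2H2BE (1.76), NDUFB8 (1.09), NDUFA7 (0.93), PFKM (0.68), CTSH (2.07), TXN (0.84), FOS (3.41), EGR1 (2.67), CD79A (1.10) and ITPKB (0.96). Genes with a called fall in Karpas422 only were AIMP2 (1.43), TBPL1 (1.33), RNF185 (1.21), MAST4 (1.16), ARFGAP3 (1.13), NARS (0.65), HERPUD1 (1.14) and IL21R (1.97). Genes that rose in Karpas422 only were KIAA0930 (-1.36), GYS1 (-1.25), DCAF4 (-1.17), DPP3 (-1.03), IFNAR2 (-0.80), ISG15 (-2.04), CD72 (-1.69), HLA-B (-1.16), HSPH1 (-0.78), DNAJA1 (-0.62) and KLF10 (-1.41). Genes with opposite responses were CHST2 (-3.32), LRP4 (-2.19), NCF1 (-1.84), ASL (-1.57), KAZALD1 (-1.42), SLC39A10 (2.06), STAT2 (-1.42) and SDC1 (-1.95). Genes that fell in both lines by unequal amounts were SIRT3 (-1.05), JDP2 (3.33), XBP1 (1.12), CDKN1A (1.71) and SLC7A11 (-1.86). Genes with a called difference and a called response in neither line were IRF7 (-1.78), STAT5A (-1.52), HLA-E (-0.74), POLA1 (0.62), SDHA (1.17), TFEB (-0.70) and PRDX3 (0.60).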

How the results depend on the processing

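The number of genes with a called difference, 1145 in the main comparison, was 891 by edgeR, 1168 by DESeq2, 1437 with no filter, 1157 and 951 with pseudocounts of 1 and 0.01, 1143 with median-ratio scaling, 1406 with quantile normalization, 1166 with no variance trend and 1212 in the fit on all 27 libraries. The 22 genes with opposite responses became 36 with shSIRT3-1 alone, 47 with shSIRT3-2 alone and 10 with a pseudocount of 1. Between the arms nearest in SIRT3 depth, 2161 genes were called, 1140 in HBL1 only, 437 in Karpas422 only and 72 in opposite directions, and SIRT3 itself differed by -0.27. The difference of ATF4, which was not called, changed sign to -0.28 with shSIRT3-1 alone, -0.078 between the nearest arms, -0.039 without Karpas422 shCTRL replicate 2 and -0.0036 without Karpas422 shSIRT3-1 replicate 3; with libraries left out it reached 0.17. The cause was not tested.

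Same-numbered replicates of different groups deviated together in 9 of 9 pairs of groups in HBL1 (mean r 0.403) and in 8 of 9 in Karpas422 (mean r 0.292, lowest 0.00783). The numbers were not taken as pairs, since every pair had to exceed 0.1, a bar met in HBL1 and missed by 1 pair in Karpas422; the labels do not say what a number stands for. With a replicate block within each line, 1624 genes were called, with 282 in Karpas422 only, 42 in opposite directions, and 2391 and 2309 with shSIRT3-1 and shSIRT3-2 alone; a replicate block across lines gave 1392.

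With a replicate number or a single library left out, the count of called genes ranged from 13 to 2049, HBL1 only from 10 to 1010, Karpas422 only from 1 to 364, opposite from 2 to 44, shSIRT3-1 alone from 12 to 2606, shSIRT3-2 alone from 2 to 2676, called list members from 4 to 171, and the SIRT3 difference from -1.11 to -0.97. Single libraries that moved a count by more than 1.5-fold were HBL1 shCTRL replicate 2 (706 called, 408 in HBL1 only, 890 with shSIRT3-1 alone and 56 list members without it), Karpas422 shCTRL replicate 2 (121 in Karpas422 only and 9 opposite), HBL1 shSIRT3-1 replicate 3 (2306 with shSIRT3-2 alone) and HBL1 shSIRT3-2 replicate 1 (972 with shSIRT3-2 alone). With 3 libraries a group, a gene missing the threshold in 1 line is not shown to be unchanged there.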

Other observations

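The line OCI-Ly1 was outside the comparison. With its 9 libraries fitted alone by limma over the same 12652 genes, 201 genes were lower and 182 higher with the SIRT3 hairpins (3.03%). Among the 529 genes that fell in HBL1 only, 14 were lower and 2 higher in OCI-Ly1, 3.02%, and among the 148 that rose in HBL1 only, 2 were lower and 9 higher, 7.43%. Of the 77 genes that rose in Karpas422 only, 2 were lower and 5 higher in OCI-Ly1, 9.09%. These counts rest on 1 library: without OCI-Ly1 shCTRL replicate 2, limma called 0 genes, with 2956 at an unadjusted p under 0.05. SIRT3 responded by -1.93 in OCI-Ly1 and by -1.79 without that library.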
